A study of Mus musculus with 6 samples.

Results

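The mitochondrial ribosomal protein genes of mouse are nuclear genes whose symbols begin with Mrpl (large subunit) or Mrps (small subunit) followed by a number. Members were selected on the measured values: a protein-coding gene with such a name entered if its mean over the 6 libraries was at least 0.1 FPKM (fragment numbers per unit of exon length and of library depth). This gave 76 members, 48 large subunit and 28 small subunit genes by name, out of 78 protein-coding genes with such a name and 28389 genes tested of 54146 listed. The threshold mattered little, because the member with the lowest mean, Mrps23, had 1.13 FPKM, while Mrps10 outside it had 0.0011 FPKM and Mrpl53 was listed at 0 in all 6 libraries. At 87.97% of its exon length, Mrpl53 overlaps a second annotated gene, Gm42688, and neither of these genes is described further. A further 5 pseudogenes with such names were left out.

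Skin RNA came from mice kept under chronic restraint stress (CRS, 3 mice) and from control mice (CON, 3 mice), both sampled at week 12. Each library was taken as 1 mouse, as the design text gives 3 mice per group. Genotype, strain, sex, age and body site are not given in the sources used here, and whole skin mixes many cell types. In such bulk tissue fewer cells of a type and less RNA per cell cannot be told apart.

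Mitochondria hold their own ribosome, which translates the few proteins encoded by mitochondrial DNA, all of them parts of the respiratory chain and ATP synthase. Its RNAs are encoded in the mitochondrion, while its proteins are encoded in the nucleus, made in the cytosol and imported. Many of these proteins have a counterpart in the bacterial ribosome, and others are found in the mitochondrial ribosome alone. In skin, this system supplies the respiratory chain of keratinocytes, follicle cells, fat and the muscle that lies beneath the dermis.

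Depth was 19.2, 25.7 and 25.2 M fragments in CRS libraries and 18.9, 19.9 and 13.3 M in CON libraries. Member values rested on 12 to 4491 fragments, and Mrps23 held the lowest. The 8 keratinocyte markers were present in every library, with summed levels of 2478 to 3493 FPKM in CRS and 2150 to 2402 FPKM in CON. Several libraries stood apart. CON replicate 1 had 15.3% of its fragments on mitochondrial genes, against 2.50% to 3.15% in CRS and 3.91% to 4.19% in the other CON libraries. It also had 12003 FPKM over the 10 skeletal muscle markers, against 419 to 2734 FPKM in CRS and 1368 to 2365 FPKM in the other CON libraries. Its Xist level was 2.80 FPKM, against 0.022 to 0.080 FPKM in CRS and 0.129 to 0.168 FPKM in the other CON libraries. Ddx3y, a Y-linked gene, was at 8.68 to 17.995 FPKM in CRS and 12.4 to 32.7 FPKM in CON, with 22.5 FPKM in CON replicate 1. Whether CON replicate 1, which held both Xist and Ddx3y, came from 1 mouse was not tested. CRS replicate 2 stood apart in the ribosomal genes and beyond them. It had 29509 genes above 0, against 31227 to 35727 in the other libraries. It held the lowest value for 33.002% of all genes tested and the highest for 29.2%. Member values are therefore given library by library, and the main counts and medians also without that library.

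The bases before the gene start are shown first, because the members are known to share regulators such as NRF1 and the ETS factor GABP. Windows from the RefSeq table (GRCm38.p6) matched 67 of the 76 members, and the 250 bases before each start were searched on both strands. The NRF1 core GCGCATGC (GCATGCGC on the opposite strand) occurred in 8 of 67 members, 11.9%, against 2.56% of 27025 genes in the table. The ETS core CCGGAAG occurred in 17 of 67, 25.4%, against 7.83%. A GC box, GGGCGGG, was found in 43.3% of members against 25.7% of all genes, the YY1 core AAGATGGC in 5.97% against 1.83%, and TATAAA in 7.46% against 14.3%. The 27025 genes were not filtered for expression in skin. Whether the members' shares differ from those of other expressed protein-coding genes was not tested. A run in which the NRF1 core overlaps its own reverse complement counts once per gene. The lines show 1 match each for 6 of the 8 members with the NRF1 core and for 4 named members with the ETS core, read 5′ to 3′ on the gene's strand, with the core in capitals. A match describes letters only.
Mrpl10, chr11:97041438-97041465, plus strand: ccagctccacGCATGCGCatagcggccc
Mrpl22, chr11:58171621-58171648, plus strand: gcctcggactGCGCATGCgtatagtcag
Mrpl9, chr3:94443298-94443325, plus strand: aggcgcagctGCGCATGCgcggggtcct
Mrpl32, chr13:14613086-14613113, minus strand: agaggggcctGCGCATGCtctgagcgag
Mrpl39, chr16:84735352-84735379, minus strand: aaggagaggcGCGCATGCgcccccgcgt
Mrps18b, chr17:35916646-35916673, minus strand: acggcccgacGCATGCGCactgggagca
Mrpl52, chr14:54426852-54426878, plus strand: aagatgtcggCTTCCGGttttcccggc
Mrpl58, chr11:115403725-115403751, plus strand: tggcggaccgCCGGAAGagtgagcacc
Mrps18a, chr17:46110968-46110994, plus strand: cacccctgctCCGGAAGcggaagtgca
Mrps27, chr13:99344728-99344754, plus strand: ggtaggaccaCTTCCGGcggaggcggg
The fold changes, CRS over CON on the log2 scale, had a median of -0.35 in the 8 members with the NRF1 core and -0.36 in the 59 without it. The 17 members with the ETS core had a median of -0.33, against -0.38 in the 50 without it.

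Levels differed 95.8-fold between members on the FPKM scale, which is per length. Mrps21, the counterpart of bacterial S21, was highest with a mean of 109 FPKM over the 6 libraries, followed by Mrpl52 at 77.8, Mrpl20 at 75.3, Mrpl54 at 62.8 and Mrpl41 at 58.9 FPKM. In the small subunit the next highest were Mrps28, with 42.7 ± 22.99 FPKM in CRS and 49.7 ± 0.777 FPKM in CON, Mrps12, with 31.8 ± 13.9 FPKM in CRS and 36.95 ± 3.98 FPKM in CON, and Mrps33, with 33.7 ± 16.3 FPKM in CRS and 33.4 ± 8.50 FPKM in CON (SD, n = 3 each). The lowest were Mrps23 with 1.13 and Mrps35 with 3.12 FPKM. The order of levels was much the same everywhere, with a Spearman correlation of 0.81 to 0.99 over the 76 members between any 2 of the 6 libraries. Large over small subunit summed FPKM was 2.24, 2.52 and 2.25 in CRS and 2.49, 2.35 and 2.41 in CON, and these ranges overlap.

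Library by library, both subunits were low in CRS replicate 2 and close to level elsewhere. The median deviation of the large subunit genes from each gene's own 6-library mean, on the log2 scale, was 0.06, -0.88 and 0.20 in CRS replicates 1 to 3 and 0.19, 0.23 and 0.15 in CON replicates 1 to 3. For the small subunit it was 0.02, -0.62 and 0.18 in CRS and 0.14, 0.25 and 0.17 in CON. Summed over all members, CRS libraries held 1902, 868 and 2069 FPKM and CON libraries 1789, 1935 and 1850 FPKM. The sum of CRS replicate 2 lay under all CON sums, and that of CRS replicate 3 lay above them all. CRS replicate 2 held the lowest value for 58 of the 76 members, against 33.002% of all genes tested, and the highest for 1, against 29.2%. CRS replicate 1 held the lowest value for 14 members, against 20.5% of all genes tested. Members were under all 3 CON libraries in CRS replicate 2 in 70 of 76 cases, against 34.1% of all genes tested. The first principal component of the members' deviations carried 77.5% of their variation and separated CRS replicate 2, and the second carried 14.2%. The SD over 3 libraries had a median over members of 0.55 in CRS and 0.14 in CON on the log2 scale, and for all genes tested it was 0.76 in CRS and 0.43 in CON.

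**Figure D1:**
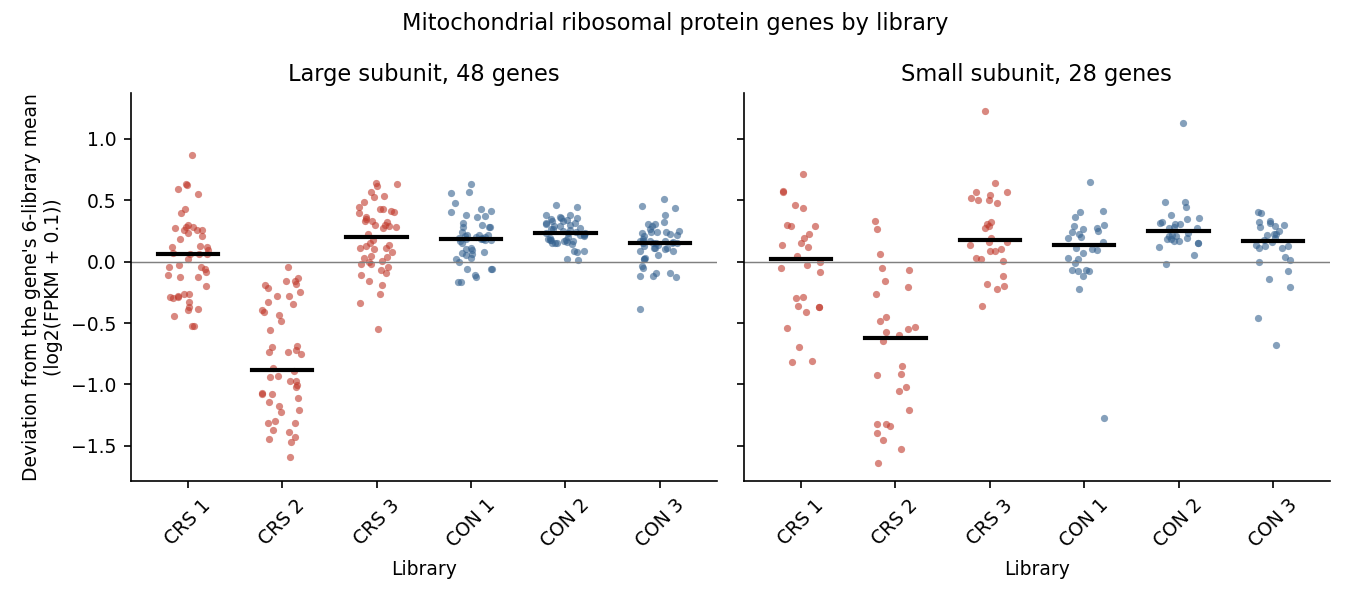
Deviation of each member from its 6-library mean, as log2(FPKM + 0.1), for 48 large and 28 small subunit genes, with CRS libraries left of CON libraries; 1 point is 1 gene and the bar is the median. In CRS replicate 2 the medians are -0.88 and -0.62, while the other libraries have medians of 0.02 to 0.25.

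The comparison of CRS with CON asks whether these genes differ in the skin of stressed mice, and no member passed the test. With limma on log2(FPKM + 0.1), 0 of 76 members had an adjusted p under 0.05 (Benjamini-Hochberg over 28389 genes), as did 0% of all genes tested, and the smallest adjusted p of a member was 1.00. At an unadjusted p under 0.05 there were 2 members lower and 0 higher in CRS, against 1.63% and 0.919% of all genes tested. With limma-voom on the fragments recovered from the FPKM values, 0 members passed, adjusted or not. An exact permutation test of 3 against 3 values cannot go below 0.1.

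In direction nearly all members pointed one way. The log2 fold change was under 0 for 74 of 76 members, against 67.8% of all genes tested, with Mrps34 (0.45) and Mrps18b (0.08) as the exceptions. Mrps34 overlaps Mapk8ip3 on the opposite strand over 63.4% of its exon length, so its value is uncertain. The median log2 fold change was -0.38 for the large subunit and -0.36 for the small subunit, against -0.20 for all genes tested. CRS and CON values did not overlap for 23 members lower in CRS, against 5.19% of all genes tested, and for 0 higher in CRS, against 1.65%. A closer background is the 11781 protein-coding genes of at least 1 FPKM. Of those, 74.4% were under 0, with a median of -0.23. In 9.01% of them the groups did not overlap and CRS was lower, and in 1.81% CRS was higher. The member counts moved with scaling, as did the shares of all genes. Under median-ratio scaling 59 members were under 0, against 49.4% of all genes, and 2 did not overlap, against 2.63%. The subunit medians relative to all genes were then -0.15 and -0.13, against -0.18 and -0.16 in the main fit. The counts also rested on CRS replicate 2. Without it, 41 of 76 members were under 0, against 61.7% of all genes. The subunit medians were then -0.07 and -0.03, against -0.21 for all genes tested.

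By role, the large subunit genes with a bacterial counterpart (29 members) had a median log2 fold change of -0.36, and the 21 genes of mitochondria-specific large subunit proteins had -0.39. Mrps30 and Mrps18a are counted among those of the large subunit, since their proteins sit in the large subunit. Small subunit genes with a bacterial counterpart (15) had a median of -0.33 and mitochondria-specific ones (10) had -0.47. Without CRS replicate 2 these 4 medians were -0.07, -0.14, 0.06 and -0.23 in the same order. No difference between role groups was tested.

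Mrpl44, whose human protein carries an RNase III-like fold, had 10.6, 12.0 and 13.7 FPKM in CRS and 20.4, 21.03 and 16.98 FPKM in CON. The groups did not overlap, and each CRS library was under each CON library. The log2 fold change was -0.69 with a standard error of 0.28 (limma unadjusted p = 0.038, adjusted p = 1.00; exact permutation p = 0.1), and -0.68 without CRS replicate 2.

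Mrpl19, the counterpart of bacterial L19, had 5.08, 6.05 and 4.50 FPKM in CRS and 9.31, 7.01 and 9.499 FPKM in CON, again with no overlap. Its log2 fold change was -0.71 with a standard error of 0.31 (limma unadjusted p = 0.047, adjusted p = 1.00), and -0.82 without CRS replicate 2. Of its exon length, 36% overlaps Gcfc2 on the opposite strand. If the counting ignored strand, fragments of the shared stretch may have been counted together or left out.

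The other members of the large subunit with the lowest p behaved alike in their ranges. Mrpl50, a mitochondria-specific protein gene, had 13.6, 16.1 and 18.7 FPKM in CRS and 25.996, 24.8 and 21.6 FPKM in CON. Mrpl45, whose protein lies at the exit tunnel facing the inner membrane, had 14.4, 10.2 and 12.5 FPKM in CRS and 17.8, 17.2 and 20.6 FPKM in CON. Mrpl1, part of the L1 stalk by which used tRNA leaves the ribosome, had 4.04, 4.58 and 4.22 FPKM in CRS and 8.36, 6.54 and 5.43 FPKM in CON. None of these 3 genes overlapped between groups, and their log2 fold changes were -0.59, -0.59 and -0.63 in that order, and -0.59, -0.46 and -0.68 without CRS replicate 2. Mrpl2, a protein near the peptidyl transferase centre, had 24.3, 21.9 and 31.3 FPKM in CRS and 41.3, 36.6 and 32.5 FPKM in CON, which leaves a small gap between the groups. Mrpl18 had 37.5, 20.02 and 44.8 FPKM in CRS and 52.1, 51.5 and 47.7 FPKM in CON, so CRS replicate 2 was the farthest from CON. Mrpl47, the counterpart of bacterial L29, was at 3.34, 3.24 and 4.21 FPKM in CRS and 6.49, 4.84 and 4.67 FPKM in CON.

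The stalk recruits the translation factors. Mrpl10, which anchors it, had 15.7, 16.1 and 15.7 FPKM in CRS and 20.4, 21.3 and 19.4 FPKM in CON. The 3 CRS values were nearly equal and all under CON, and the log2 fold change was -0.36 with a standard error of 0.26 (limma adjusted p = 1.00), and -0.37 without CRS replicate 2. Mrpl12, the stalk protein itself, had 28.1, 16.03 and 32.2 FPKM in CRS and 36.7, 35.5 and 37.3 FPKM in CON. Mrpl11, at the stalk base, had 20.3, 9.78 and 24.2 FPKM in CRS and 21.4, 22.7 and 21.9 FPKM in CON. For Mrpl11, CRS replicate 2 was far under CON, CRS replicate 1 was just under it and CRS replicate 3 was above it, and the log2 fold change was -0.38 with all libraries and 0.01 without that one.

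In the small subunit, Mrps27, a pentatricopeptide repeat protein, had 7.28, 8.13 and 8.17 FPKM in CRS and 11.5, 12.1 and 10.1 FPKM in CON. Mrps9, the counterpart of bacterial S9, had 4.29, 4.98 and 4.76 FPKM in CRS and 7.20, 6.28 and 6.48 FPKM in CON. Neither gene overlapped between groups, and their log2 fold changes were -0.51 and -0.50, each with p above 0.05 even unadjusted (0.101 and 0.122 by limma). They were -0.53 and -0.55 without CRS replicate 2. Mrps27 overlaps 6430562O15Rik on the opposite strand over 24.2% of its exon length. Mrps2, the counterpart of bacterial S2, had 4.72, 10.1 and 6.47 FPKM in CRS and 11.1, 9.73 and 10.2 FPKM in CON. Here CRS replicate 2 was the library that overlapped CON, and without it the log2 fold change moved to -0.89, against -0.61 with all 6. Mrps15 had 30.7, 16.7 and 36.4 FPKM in CRS and 36.5, 38.3 and 39.5 FPKM in CON, with CRS replicate 3 just under the lowest CON value. Mrps25 and Mrps35, both mitochondria-specific, averaged 4.17 ± 0.993 and 2.54 ± 0.534 FPKM in CRS and 5.90 ± 0.224 and 3.70 ± 0.384 FPKM in CON (SD, n = 3 each). Mrps25 shares 69.8% of its exon length with Nr2c2 on the opposite strand, so its value is uncertain. In all, 16 of the 76 members share at least 10% of their exon length with another annotated gene, among them Mrpl18, Mrpl12, Mrpl47 and Mrpl10, with 10.1% to 14.1%.

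The paralogs of bacterial S18 gave different values. Mrps18c, the small subunit protein, had 33.1, 9.43 and 35.1 FPKM in CRS and 22.8, 29.2 and 26.2 FPKM in CON. Mrps18a, which sits in the large subunit, had 6.98, 4.89 and 7.24 FPKM in CRS and 7.67, 8.08 and 8.46 FPKM in CON. Mrps18b had 5.10, 8.34 and 7.43 FPKM in CRS and 7.87, 8.19 and 4.11 FPKM in CON. CRS replicate 2 was thus the lowest library for Mrps18a and Mrps18c and the highest for Mrps18b. The log2 fold changes were -0.22, -0.36 and 0.08 for Mrps18c, Mrps18a and Mrps18b. Without CRS replicate 2 they were 0.39, -0.18 and -0.06, so those of Mrps18c and Mrps18b changed sign. The exons of Mrps18b overlap Gm16279 on the opposite strand over 30.5% of their length, and those of Mrps18c overlap Gm43511 on the same strand over 23.2%, so both values are uncertain.

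The other genes named for their roles were lowest in CRS replicate 2. Mrps12, a protein of the decoding centre, had 38.5, 15.8 and 41.2 FPKM in CRS and 33.3, 36.4 and 41.2 FPKM in CON. Mrpl58, a peptidyl-tRNA hydrolase that rescues stalled ribosomes, had 13.9, 5.27 and 14.2 FPKM in CRS and 11.9, 13.2 and 12.5 FPKM in CON. In Mrpl58, CRS replicates 1 and 3 were above all CON libraries and CRS replicate 2 was under them. Mrps30 had 3.95, 3.04 and 3.86 FPKM in CRS and 5.05, 4.34 and 5.29 FPKM in CON, with no overlap. Mrps36, named as a ribosomal protein but described as part of the 2-oxoglutarate dehydrogenase complex, had 35.8, 11.4 and 32.7 FPKM in CRS and 28.6, 33.7 and 26.8 FPKM in CON. Mrps23, the member with the lowest level, had 0.467, 0.299 and 2.24 FPKM in CRS and 1.08, 2.09 and 0.627 FPKM in CON, a spread wider than any difference between the groups.

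The most abundant members had a wide spread in CRS. Mrps21 had 147, 34.2 and 147 FPKM in CRS and 106, 109.9 and 108 FPKM in CON. Mrpl52 had 127, 22.9 and 100.2 FPKM in CRS and 66.2, 73.3 and 77.6 FPKM in CON. Mrpl54 had 86.0, 20.9 and 87.2 FPKM in CRS and 50.8, 57.5 and 74.2 FPKM in CON. In each of these 3 genes, CRS replicates 1 and 3 were above all CON libraries and CRS replicate 2 was under all of them. Mrpl20 had 91.2, 26.7 and 107 FPKM in CRS and 61.5, 83.5 and 81.7 FPKM in CON, in the same pattern. Mrpl41 had 60.5, 25.7 and 78.3 FPKM in CRS and 56.8, 63.0 and 69.1 FPKM in CON, where CRS replicate 1 fell within the CON range. Their log2 fold changes over all 6 libraries lay between -0.34 for Mrpl41 and -0.12 for Mrpl52, and without CRS replicate 2 between 0.13 for Mrpl41 and 0.64 for Mrpl52.

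**Figure D2:**
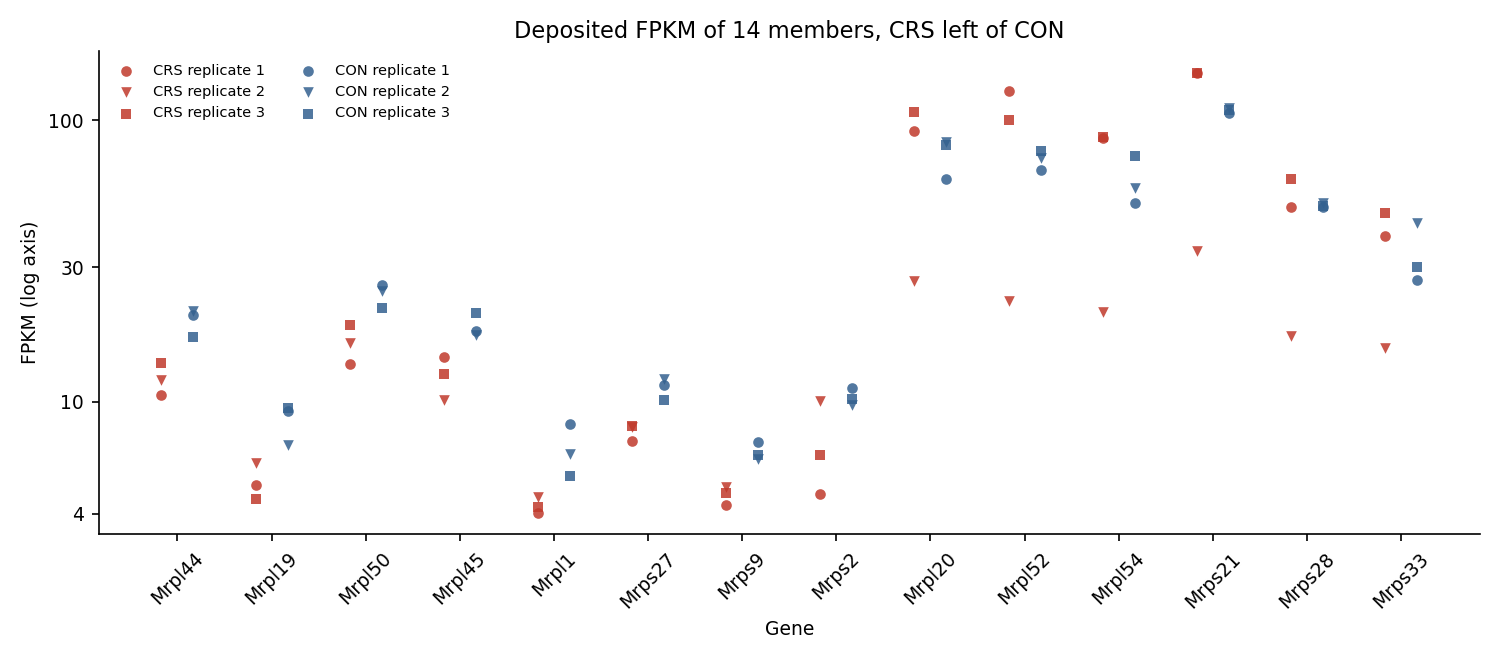
Deposited FPKM (log axis) of 14 members, with 3 CRS libraries left of 3 CON libraries for each gene and a marker shape for each replicate number. From Mrpl44 to Mrps9 every CRS point lies under every CON point, while for Mrpl20, Mrpl52, Mrpl54 and Mrps21 CRS replicate 2 lies under CON and the other CRS libraries lie above it.

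CRS replicates 1 and 3 divided the members. Both were under all 3 CON libraries in 24 members, against 27.4% of all genes tested, which is near the members' share of 31.6%. Both were above all CON libraries in 16 members, 21.1%, against 7.46% of all genes. The 24 had coding sequences of 477 to 1326 nt with a median of 880.5 nt, and the 16 had 195 to 633 nt with a median of 432 nt. CRS replicate 2 was under all CON libraries in 23 of the 24 and in 16 of the 16. Without CRS replicate 2, limma gave 12 members lower and 6 higher at an unadjusted p under 0.05, against 14.6% and 2.49% of all genes, and 0 members passed after adjustment (smallest adjusted p = 0.192).

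**Figure D3:**
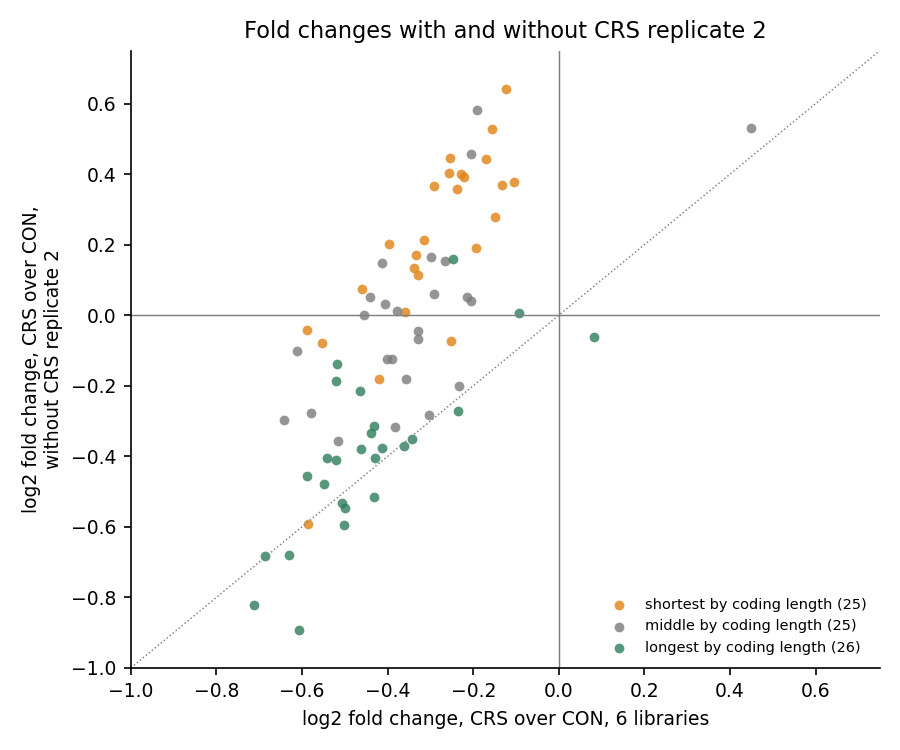
Log2 fold change of each member, CRS over CON, from all 6 libraries (horizontal) and without CRS replicate 2 (vertical), coloured by range of coding length (25 short, 25 middle and 26 long members), with the dotted line marking equality. With all libraries 74 of 76 members are under 0; without CRS replicate 2 only 41 are, and the shortest members lie mostly above 0.

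Coding length ordered the members in each CRS library. Over the 76 members, the Spearman correlation between coding length and deviation was -0.73, 0.74 and -0.71 in CRS replicates 1 to 3 and 0.52, 0.18 and -0.10 in CON replicates 1 to 3, as a description over genes that share libraries. In 11705 other protein-coding genes of at least 1 FPKM it was -0.37, 0.64 and -0.57 in CRS and 0.22, -0.45 and 0.06 in CON. The sign in CRS replicate 2 was thus the reverse of that in CRS replicates 1 and 3, in the members and in other genes. The deviations of a gene sum to 0 over the 6 libraries. A low value in CRS replicate 2 therefore raises the others, and the signs are not independent. Other properties of the members gave weaker correlations in CRS replicates 1 to 3. For total exon length they were -0.28, 0.36 and -0.43, and for GC content 0.15, -0.10 and 0.18.

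Split by coding length, the 25 shortest members (195 to 477 nt) had median deviations of 0.29, -1.22 and 0.43 in CRS and 0.03, 0.17 and 0.16 in CON. Other coding genes in that range (1072) had 0.21, -0.68 and 0.27 in CRS and -0.05, 0.24 and 0.11 in CON. The 25 members of the middle range had 0.06, -0.85 and 0.28 in CRS and 0.15, 0.27 and 0.18 in CON, against -0.13, -0.12 and 0.01 in CRS and 0.03, 0.23 and 0.06 in CON for 1592 other genes. The 26 longest (756 to 1326 nt) had -0.32, -0.27 and -0.03 in CRS and 0.28, 0.25 and 0.13 in CON. For 3239 other genes of 756 to 1326 nt these values were -0.31, 0.21 and -0.24 in CRS and 0.16, 0.18 and 0.06 in CON. In CRS replicate 2, the median of the members lay under that of the other genes in each of these ranges. Without CRS replicate 2, 24 of the 26 longest members were under 0, against 79.4% of the other genes in that range, and 5 of the 25 shortest were, against 40.6%.

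**Figure D4:**
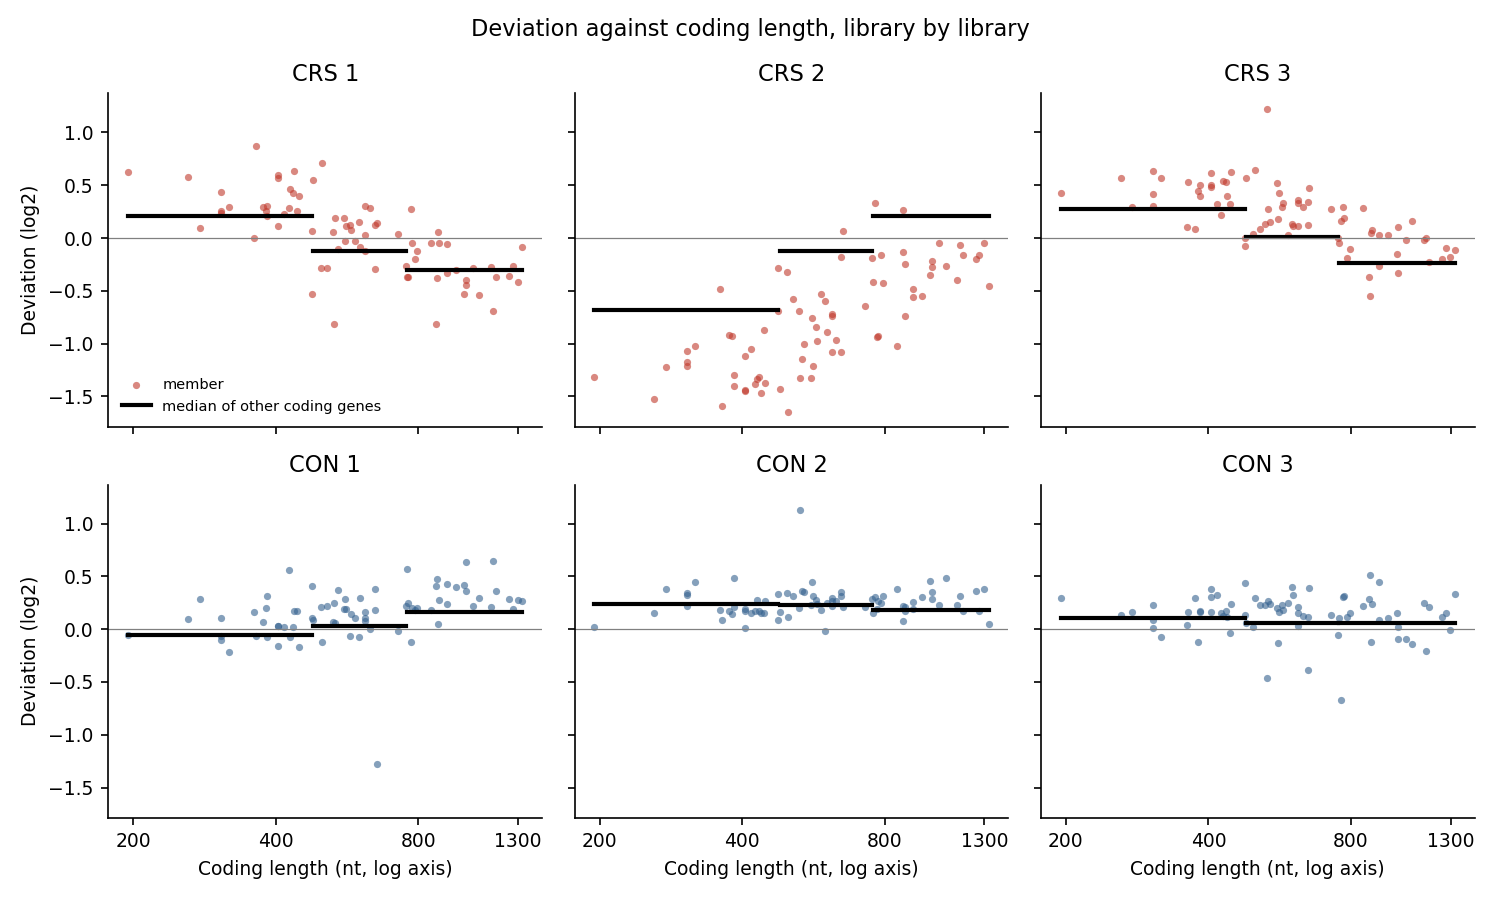
Deviation from the 6-library mean (log2) against coding length (nt, log axis), with CRS libraries above CON libraries; points are the 76 members and black bars the medians of other protein-coding genes in the same ranges of length. Members slope downward in CRS replicates 1 and 3 and upward in CRS replicate 2, where the 25 shortest have a median of -1.22.

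The rest of the mitochondrial translation system was described by lists, and no gene of any list had an adjusted p under 0.05 by limma. Mitoribosomal proteins that the name rule misses were 5 of 5 under 0, against 67.8% of all genes tested, with a median log2 fold change of -0.31. The median was -0.14 without CRS replicate 2, and 3 of 5 were under 0. Dap3, a small subunit GTP-binding protein, had 7.40, 6.23 and 8.78 FPKM in CRS and 10.7, 10.3 and 9.48 FPKM in CON, with no overlap. Ptcd3 had 2.02, 7.24 and 3.16 FPKM in CRS and 6.78, 5.37 and 4.06 FPKM in CON, with overlap. Dap3 was the 1 gene of the 5 whose groups did not overlap, against 5.19% of all genes tested.

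The 13 mitochondrial translation factors were all under 0, against 67.8% of all genes tested, with a median of -0.45, against -0.20. Without CRS replicate 2 their median was -0.68, against -0.21 for all genes tested. It was then -0.41 for the other coding genes of 756 to 1326 nt. By limma, 1 factor was lower in CRS at an unadjusted p under 0.05, against 1.63% of all genes tested. That gene was Tsfm, an elongation factor that exchanges nucleotide on Tufm, with 4.01, 5.42 and 4.78 FPKM in CRS and 9.53, 7.10 and 8.97 FPKM in CON (log2 fold change -0.83, standard error 0.31, limma unadjusted p = 0.024, adjusted p = 1.00). Mtres1, annotated as 1700021F05Rik, had 7.28, 4.33 and 7.46 FPKM in CRS and 9.73, 8.54 and 10.3 FPKM in CON. Both genes were lower in every CRS library than in any CON library. This held for 4 of the 13 factors, against 5.19% of all genes tested and 9.01% of protein-coding genes of at least 1 FPKM.

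Of 29 assembly and rRNA modification genes, 28 were under 0, against 67.8% of all genes tested. Their median was -0.39, against -0.20 for all genes tested. Without CRS replicate 2 it was -0.57, against -0.21. The median coding length of this list was 1215 nt, and other coding genes of 756 to 1326 nt had -0.41 without that library. Tfb1m, which dimethylates the small subunit rRNA, had 1.35, 1.68 and 2.01 FPKM in CRS and 3.56, 3.74 and 2.31 FPKM in CON. Rpusd4, a pseudouridine synthase, had 2.36, 4.32 and 3.87 FPKM in CRS and 6.09, 5.42 and 4.97 FPKM in CON. Neither overlapped between groups. In 11 of the 29 genes the groups did not overlap, each lower in CRS. This compares with 5.19% of all genes tested and 9.01% of protein-coding genes of at least 1 FPKM.

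All 20 genes for mitochondrial aminoacyl-tRNA synthetases and amidotransferase subunits were under 0, against 67.8% of all genes tested. Their median was -0.38, against -0.20 for all genes tested, and without CRS replicate 2 it was -0.61, against -0.21. Other coding genes of 756 to 1326 nt had -0.41 without that library. The median coding length of the 20 genes, 1615.5 nt, lies above that range. Yars2, the tyrosyl enzyme, had 2.64, 4.26 and 3.09 FPKM in CRS and 5.56, 4.75 and 4.44 FPKM in CON. Gatb, an amidotransferase subunit, had 2.20, 3.42 and 2.64 FPKM in CRS and 4.06, 3.72 and 3.66 FPKM in CON. These were the 2 genes of the 20 whose groups did not overlap. The share was 5.19% of all genes tested and 9.01% of protein-coding genes of at least 1 FPKM. Among 19 genes of mitochondrial DNA expression and its nuclear regulators, 17 were under 0 (median -0.46), against 67.8% of all genes tested (median -0.20). Leaving out CRS replicate 2, 18 were, with a median of -0.88, against 61.7% of all genes tested with a median of -0.21. The median coding length of the 19 genes was 1362 nt, also above the range of 756 to 1326 nt. Tfam, which packages mitochondrial DNA, had 4.41, 7.64 and 6.50 FPKM in CRS and 11.1, 9.39 and 9.70 FPKM in CON, and did not overlap. Myc had 6.32, 16.8 and 7.01 FPKM in CRS and 15.3, 12.5 and 17.4 FPKM in CON, and did. Tfam was the 1 gene of the 19 without overlap, against the same shares of 5.19% and 9.01%.

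The lists of translation factors and synthetases were not lowest in CRS replicate 2. Translation factors had a median deviation of -0.44, 0.27 and -0.33 in CRS and 0.42, 0.15 and 0.13 in CON, and the aminoacyl-tRNA synthetases had -0.49, 0.27 and -0.41 in CRS and 0.35, 0.18 and 0.10 in CON. Their median coding lengths were 1158 and 1615.5 nt, against 582 nt for the members. The 76 cytosolic ribosomal protein genes, with a median coding length of 454.5 nt, had 0.79, -1.63 and 0.71 in CRS and -0.35, 0.26 and 0.24 in CON. Of those 76, 61 were under 0 with all libraries, against 67.8% of all genes tested. Without CRS replicate 2, 3 were, against 61.7% of all genes tested and 40.6% of the other coding genes of 195 to 477 nt. None of the 76 separated CRS from CON. Rpl13a had 25.999, 13.8 and 32.8 FPKM in CRS and 29.97, 33.4 and 41.6 FPKM in CON, and Rplp2 had 405, 122 and 355 FPKM in CRS and 327, 350.2 and 724 FPKM in CON.

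**Figure D5:**
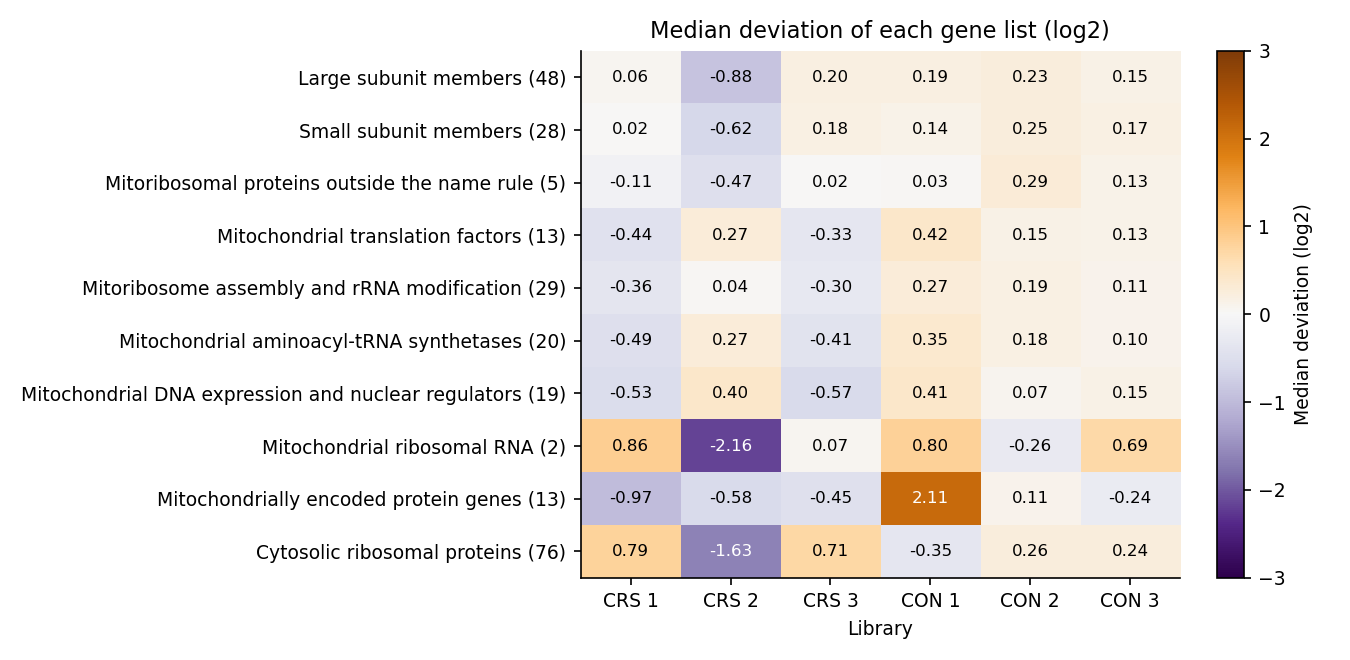
Median deviation (log2) in each library of both member subunits and 8 gene lists, with the number of genes in parentheses and CRS libraries left of CON libraries. The cytosolic ribosomal proteins and mitochondrial ribosomal RNA share the low value of CRS replicate 2 with the members, while the other lists of translation genes have 0.04 to 0.40 there, apart from the 5 mitoribosomal proteins at -0.47 and the mitochondrially encoded genes at -0.58.

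The RNAs of the ribosome and its products are mitochondrial transcripts. mt-Rnr1, the small subunit RNA, had 6151, 623 and 3318 FPKM in CRS and 5383, 2633 and 4681 FPKM in CON, and mt-Rnr2, the large subunit RNA, had 5326, 796 and 3291 FPKM in CRS and 5578, 2624 and 5525 FPKM in CON. Both were lowest in CRS replicate 2, as the members were. The 13 protein genes of mitochondrial DNA were all under 0, against 67.8% of all genes tested (median -1.39, and -1.50 without CRS replicate 2). Their order of libraries differed, with CON replicate 1 the highest. The median deviation was -0.97, -0.58 and -0.45 in CRS and 2.11, 0.11 and -0.24 in CON, so these fold changes rested in part on CON replicate 1. Among the 13 genes, mt-Atp6 had 92.3, 74.3 and 170.5 FPKM in CRS and 1476, 319 and 170.3 FPKM in CON. For mt-Nd6 the values were 693, 1351 and 645 FPKM in CRS and 4782, 1180 and 1849 FPKM in CON.

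Summed marker levels did not overlap between the groups for keratinocytes, hair shaft and matrix, melanocytes and proliferation, overlapped for the other lists, and no marker had an adjusted p under 0.05 by limma. Skeletal muscle markers were 10 of 10 under 0, against 67.8% of all genes tested (median -1.85, and -2.70 without CRS replicate 2). Their summed levels were 419 to 2734 FPKM in CRS and 1368 to 12003 FPKM in CON. The 12003 FPKM were those of CON replicate 1, and the other CON libraries had 1368 and 2365 FPKM. Endothelial markers were 4 of 4 under 0, with 4.62 to 22.5 FPKM in CRS and 9.60 to 28.2 FPKM in CON, and proliferation genes 6 of 6, with 43.9 to 81.6 FPKM in CRS and 82.9 to 109 FPKM in CON. Hair shaft and matrix markers were 6 of 7 above 0, with 8591 to 12029 FPKM in CRS and 2203 to 7443 FPKM in CON. Fibroblast markers were 5 of 6 above 0, with 803 to 1274 FPKM in CRS and 234 to 1277 FPKM in CON. Melanocyte markers were 6 of 6 under 0, with 176 to 206 FPKM in CRS and 261 to 301 FPKM in CON. Keratinocyte markers were 7 of 8 above 0, with the sums given above. Without CRS replicate 2, 3 of these 8 were under 0, and their median moved from 0.53 to 0.24. Leukocyte markers were 5 of 5 above 0, with 188 to 359 FPKM in CRS and 99.9 to 358 FPKM in CON. Without CRS replicate 2, 1 of these 5 was under 0, and their median moved from 0.53 to 0.11. Adipocyte markers were 3 of 5 under 0, with 370 to 799 FPKM in CRS and 343 to 653 FPKM in CON, and thermogenic adipocyte markers 4 of 5, with 30.8 to 70.9 FPKM in CRS and 35.3 to 117 FPKM in CON. Without CRS replicate 2 these counts were 4 of 5 and 3 of 5. Those of endothelium, proliferation, hair, fibroblasts and melanocytes were then unchanged. Of all genes tested, 67.8% were under 0 with all libraries and 61.7% without CRS replicate 2. No marker in these lists was at 0 in any library, and their part in the members' values was not tested. Without CON replicate 1, the library with the most muscle signal, 75 of 76 members were under 0, against 65.6% of all genes tested. The other libraries also hold muscle signal, so this count does not test the part of muscle.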

How the data were processed

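RNA was taken up in Trizol and 1 library built per sample with Illumina protocols, per the labels' protocols. Whether poly(A) RNA was selected, and whether strand was kept, is not given in the sources used here. Reads were aligned with HISAT2 to GRCm39, per the submitters' processing notes. The counter and annotation are not given in the sources used here. The deposited values are FPKM, 1 file per library. Each ID got its symbol, type and length from GENCODE M21 (build GRCm38), which held 54079 of the 54146 IDs, and no coordinates were taken from it. Coding length is that of the principal transcript.

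Genes averaging 0.1 FPKM or more were tested as log2(FPKM + 0.1), so fold changes of low genes are understated. CRS was compared with CON by limma 3.58.1 (R 4.3.3) with a mean-variance trend, two-sided, Benjamini-Hochberg over all genes, threshold 0.05, tested first on simulated data. Exact permutation tests were two-sided. FPKM times exon length fell within 0.05 of whole fragments for 98.1% to 98.3% of values up to 100 fragments, which gave depths of 13.3 to 25.7 M. Fragments without molecular identifiers are not independent molecules. The p-values measure the spread between these libraries.

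The members and lists were chosen with earlier results of these data known, and no test over the members was made. Named members were, per subunit, the 6 lowest p, the 4 highest and 2 lowest means, non-overlapping genes with the largest change, and genes with particular roles. Of each list, the 2 genes with the lowest p were named. Mrpl55, at first listed with a bacterial counterpart, was placed with the mitochondria-specific genes. Krt85, a hair marker, matched no ID and was not analysed here. Alternatives were other pseudocounts, filters, scalings, weights and corrections, and each library left out.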

Additional observations from a re-analysis of the deposited data

How the results depend on the processing

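No alternative gave a member, a named member or a list gene an adjusted p under 0.05 (limma), and the lowest member value was 0.0898, under array weights. No pairing of CRS and CON numbers was used in the main fit. Same-numbered libraries had correlations of -0.30, -0.04 and 0.10, and the other pairs had -0.40 to 0.50. These values were centred within each group, so they are tied together and cannot settle whether the numbers are paired. With the replicate block 74 members were under 0 and 0 of 76 passed. Leaving out each library in turn, or CRS replicate 2 and CON replicate 1 together, gave 41 to 75 members under 0 (57.2% to 68.6% of all genes), 23 to 37 non-overlapping lower (7.11% to 31.1% of all genes) and 0 to 17 higher (2.75% to 10.5%), and medians relative to all genes of -0.47 to 0.14 (large subunit) and -0.45 to 0.19 (small). The highest of these values for the medians and the 41 came without CRS replicate 2, and the cause was not tested. Without CRS replicate 2 and CON replicate 1 together, a choice made after seeing the data, 45 members were under 0, against 61.1% of all genes. In that setting 26 were non-overlapping lower, against 31.1% of all genes. Median-ratio scaling put 59 members under 0 (49.4% of all genes), upper-quartile scaling 62 (50.7%) and length and GC correction 64 (46.7%). Without the 16 members that overlap another gene, also chosen later, the relative medians were -0.15 and -0.20. Array weights gave 41 under 0, against 71.7% of all genes, and relative medians of 0.32 and 0.41. Non-overlapping lower members numbered 2 under median-ratio and upper-quartile scaling (2.63% and 2.83% of all genes), 38 under TPM scaling (4.49%), 8 after length and GC correction (3.23%) and 7 after coding length correction (4.80%), also chosen after seeing the data. Mrps23, with 12 fragments in its lowest library, is limited by depth.
Of the 32 named members, these had log2 fold changes that crossed 0 when libraries were left out: Mrpl11 -0.64 to 0.012, Mrpl20 -0.60 to 0.40, Mrpl41 -0.67 to 0.13, Mrpl52 -0.59 to 0.64, Mrpl54 -0.50 to 0.53, Mrpl58 -0.54 to 0.17, Mrps12 -0.57 to 0.11, Mrps18b -0.23 to 0.29, Mrps18c -0.55 to 0.39, Mrps21 -0.61 to 0.45, Mrps28 -0.77 to 0.15, Mrps33 -0.42 to 0.38 and Mrps36 -0.61 to 0.21. Under array weights 13 of the 32 reversed, namely Mrpl11 0.076, Mrpl20 0.42, Mrpl41 0.23, Mrpl52 0.44, Mrpl54 0.46, Mrpl58 0.14, Mrps12 0.10, Mrps18c 0.36, Mrps21 0.39, Mrps23 0.63, Mrps28 0.23, Mrps33 0.42 and Mrps36 0.12. Of the named members, coding length correction turned Mrpl52 to 0.051, Mrpl54 0.027 and Mrps33 0.062, and length and GC correction Mrps33 0.16, with or without the block. Median-ratio scaling turned, of the named members, Mrpl20 to 0.0082, Mrpl52 0.11, Mrpl54 0.080, Mrps18c 0.015 and Mrps33 0.13, upper-quartile scaling Mrpl52 0.093, Mrpl54 0.062 and Mrps33 0.11, and TPM scaling moved Mrps18b to -0.0031.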
